A study of Homo sapiens with 9 samples.

Results

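Small nucleolar RNA (snoRNA) host genes are genes whose spliced-out introns carry snoRNAs. The set described here was taken by name from the table of counts per gene: every row called SNHG followed by a number, plus GAS5, ZFAS1, DANCR and EPB41L4A-AS1. This gave 32 of 59452 genes, with 726 annotated transcripts between them. The cells were MDA-MB-453, an established human breast cancer line that the labels call triple-negative and of wild-type genotype. All 9 libraries came from this 1 line, grown with 10% serum and sampled after 48 hours of treatment. In 3 libraries the cells were attached and received vehicle (DMSO). In 3 they were held in forced suspension on poly-HEMA coated plates with vehicle, and in 3 they were in suspension with 10 µM AT-0174 (AT0174 in the labels), a dual inhibitor of the tryptophan-degrading enzymes TDO2 and IDO1. No library held attached cells with AT-0174, so the drug was compared in suspension alone. The study's methods call the replicates biological triplicates of the line, and p-values measure the spread between them.

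A snoRNA is released when the intron that carries it is spliced out, debranched and trimmed. Box C/D snoRNAs guide 2′-O-methylation and box H/ACA snoRNAs guide pseudouridylation, mostly of ribosomal RNA, while the related scaRNAs guide the same changes in spliceosomal RNAs in Cajal bodies. The joined exons that remain form the host transcript. Many host transcripts carry short or no useful reading frames and are known as targets of nonsense-mediated decay, the pathway that removes messages with early stop codons during translation, and several begin with a terminal oligopyrimidine (TOP) run as ribosomal protein messages do. A change in such a transcript is therefore not a measure of the snoRNA it releases.

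Library totals ran from 36649997 to 48019126 estimated counts, and 3 counts corresponded to 0.0625 to 0.0819 CPM, that is, counts scaled to the library total. Levels by library are given as CPM after TMM scaling, an adjustment for library composition, and levels between genes as TPM, transcripts scaled per length. The luminal genes of the line were abundant, with GATA3 between 1209 and 1388 CPM and ERBB2 between 1029 and 1082 CPM, while ESR1 stayed at or under 4 counts and PGR between 5 and 18 counts. A triple-negative label also covers ERBB2, whose RNA was thus abundant here, and no protein was measured in these files. Of 10 markers of other cell types, CD3E and DCN were at 0 in all libraries, 2 passed the filter on low counts, and their summed level was 133 to 151 CPM in attached, 114 to 115 CPM in suspended vehicle and 109 to 116 CPM in AT-0174 libraries. Nearly all of that sum was COL1A1, at 107 to 149 CPM.

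By position in RefSeq, 148 snoRNAs and scaRNAs lay inside 30 of the 32 hosts, 83 of them in SNHG14, the long imprinted transcript downstream of SNRPN. Strand was not compared in this search. Of the hosts, 12 held only box C/D snoRNAs, 11 only box H/ACA, 3 both kinds (GAS5, SNHG12 and SNHG25) and 4 a scaRNA (SNHG10, SNHG20, SNHG21 and SNHG22). None was found in SNHG27 and SNHG28. The rows of the snoRNAs themselves were nearly empty in these mRNA libraries. Of 134 with a row in the table, 124 were at 0 in all 9 libraries, 8 more reached at most 5.73 counts and were at 0 in at least 1 library, and 2 had at least 3 counts in each.

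The exceptions were SNORA73B in SNHG3 and SNORA71B in SNHG17. SNORA73B had 13, 14 and 25 counts in attached libraries, 22, 14 and 28 with suspension and vehicle, and 27, 18 and 14 with AT-0174. SNORA71B lay between 7 and 12 counts. Neither separated the groups, so the rows of the host genes were what could be compared at these loci. An empty snoRNA or scaRNA row does not show that the host row holds spliced host transcripts only, as in SNHG22 below. The annotated 204-base sequence of SNORA73B (GENCODE transcript, chr1:28508558-28508762 in RefSeq, inside SNHG3) is shown because it is the snoRNA with the most counts, with the ACA box 3 bases before its end in capitals.

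SNORA73B: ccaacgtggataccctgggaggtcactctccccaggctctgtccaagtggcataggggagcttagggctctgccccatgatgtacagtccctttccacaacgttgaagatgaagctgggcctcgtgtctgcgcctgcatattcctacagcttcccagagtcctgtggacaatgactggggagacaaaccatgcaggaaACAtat

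The starts of the hosts were searched for a pyrimidine run, since a C followed by pyrimidines at the first base is the mark of TOP messages. In the set of RefSeq promoters used (GRCh38.p14, the build of the files), 28 hosts had an entry. SNHG15, SNHG25, SNHG6 and SNHG9 had no entry in it, and their starts were not searched. A C followed by at least 4 more C or T, searched on the transcribed strand and beginning within 10 bases of the start, was present in 17 of the 28 (60.7%), in 33.3% of 27305 RefSeq promoters and in 55 of 62 ribosomal protein genes (88.7%). At 7 or more bases the shares were 21.4%, 13.4% and 79.0%, so the hosts lay nearer to all promoters than to ribosomal protein genes once longer runs were required. The windows below show 60 bases around 1 annotated start per gene, which is letter 31, with the letters counted by the search in capitals. Where a longer run of C and T opens before the searched bases, as in SNHG29, the capitals mark only its part inside them, so the run there is longer and opens further upstream than the capitals. The search scored only that part, so SNHG29 counted as a run of 6 and not among those of 7 or more. All promoters were scored in the same way. They belong to the hosts that changed on suspension and to others named in the text.

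SNHG16, chr17:76557734-76557793, plus strand: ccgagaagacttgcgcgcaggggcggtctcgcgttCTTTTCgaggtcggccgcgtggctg
SNHG29, chr17:16438957-16439016, plus strand: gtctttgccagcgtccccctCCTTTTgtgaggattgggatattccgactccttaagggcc
SNHG12, chr1:28581844-28581903, minus strand: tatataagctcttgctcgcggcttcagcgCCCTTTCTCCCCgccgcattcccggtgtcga
SNHG22, chr18:49813993-49814052, plus strand: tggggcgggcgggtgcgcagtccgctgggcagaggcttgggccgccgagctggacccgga
ZFAS1, chr20:49278612-49278671, plus strand: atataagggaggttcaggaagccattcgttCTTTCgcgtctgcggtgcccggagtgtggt
SNHG32, chr6:31834886-31834945, plus strand: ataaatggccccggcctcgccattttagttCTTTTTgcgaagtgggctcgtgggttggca
SNHG5, chr6:85678704-85678763, minus strand: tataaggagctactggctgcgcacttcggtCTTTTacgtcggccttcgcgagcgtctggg
DANCR, chr4:52712364-52712423, plus strand: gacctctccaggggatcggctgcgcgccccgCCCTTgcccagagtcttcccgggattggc
GAS5, chr1:173869016-173869075, minus strand: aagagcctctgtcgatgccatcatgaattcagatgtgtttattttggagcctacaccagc

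In ZFAS1, SNHG5 and SNHG32 the run opened at the annotated first base. SNHG22 and GAS5 had no such run beginning within 10 bases of the annotated start. The GAS5 window does hold a run of this kind, cctct, further upstream and outside the searched bases. For 11 of the 28 hosts the outermost GENCODE start lay over 100 bases from the RefSeq start. Among them were ZFAS1 at 464 bases, SNHG32 at 308, SNHG29 at 220, SNHG5 at 199, GAS5 at 163 and SNHG12 at 1259 bases. A window therefore marks 1 annotation and not the start used in these cells.

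The host genes spanned a wide range of levels in MDA-MB-453 cells. By mean TPM over the 9 libraries the order began with SNHG25 at 609, SNHG29 at 427, SNHG8 at 207, DANCR at 192 and SNHG7 at 175, followed by GAS5 at 163, SNHG16 at 156, ZFAS1 at 154 and SNHG6 at 119. The value of SNHG25 rests on a transcript of 106 bases that took 73.2% of its TPM, and per-length values of so short a transcript depend on the length correction. In CPM it was among the lower hosts, at 15.3 to 20.8. GAS5, SNHG16 and ZFAS1 did not keep 1 order across groups. In attached libraries they were at 156 ± 4.32, 133 ± 6.71 and 144 ± 1.92 TPM (SD, n = 3), with SNHG16 the lowest. In suspended vehicle libraries they were at 164 ± 8.59, 172 ± 4.82 and 159 ± 4.78 TPM (SD, n = 3), with SNHG16 the highest by mean. In AT-0174 libraries they were at 169 ± 10.0, 163 ± 4.80 and 160 ± 3.59 TPM (SD, n = 3), with GAS5 the highest by mean.

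At the other end, SNHG22 (2.74 TPM), SNHG21 (2.04 TPM) and SNHG4 (3.19 TPM) were the lowest of the 27 hosts that passed the filter. SNHG18, SNHG26, SNHG27, SNHG28 and SNHG31 did not pass. SNHG18 was at 0 in all 9 libraries, and the highest values of the other 4 were 3, 1.02, 8.16 and 7 counts, so no comparison was made for them. All 32 hosts together took 0.124% ± 0.000875 of the counts in attached, 0.133% ± 0.0026 in suspended vehicle and 0.132% ± 0.0041 in AT-0174 libraries (SD, n = 3), with SNHG29 alone supplying the most. The lowest suspended library, at 0.129%, lay above the highest attached library, at 0.125%. Without SNHG29 the shares were 0.101%, 0.106% and 0.106%, with SNHG16 still among them. These shares are of counts before TMM scaling, whose factors were 0.973 to 0.990 in attached and 1.01 to 1.02 in suspended vehicle libraries. The part of library composition in them was not tested, and the median host log2 fold change on suspension was 0.00.

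**Figure D1:**
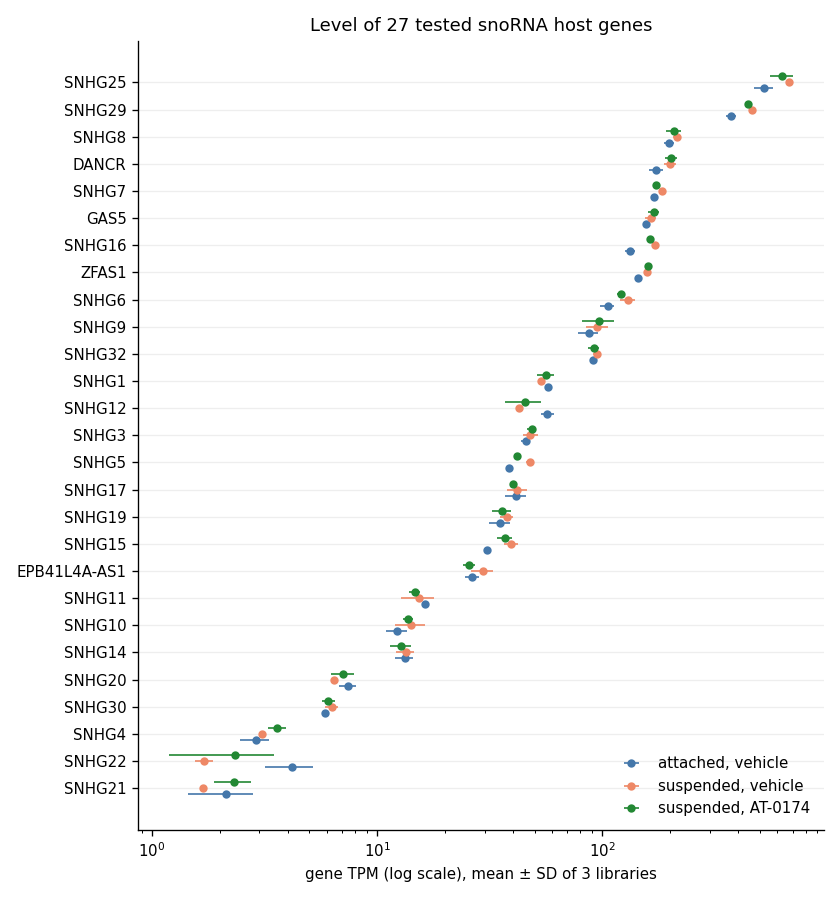
Level of the 27 tested host genes as gene TPM on a log axis, with the mean and SD of 3 libraries for attached vehicle (blue), suspended vehicle (orange) and suspended AT-0174 (green). SNHG25 and SNHG29 lead, SNHG21 and SNHG22 are lowest, and the groups of most genes lie close together.

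Most hosts were expressed as several transcripts. The leading transcript took a median of 45.9% of a gene's TPM, over 50% in 11 of 27 genes, from 17.3% in SNHG11 to all of it in SNHG19 and SNHG22. For GAS5, the host of 10 box C/D snoRNAs and 1 box H/ACA snoRNA, known as a transcript that rises when growth arrests, 18 of 31 transcripts averaged at least 1 TPM. In SNHG12 the leading transcript, ENST00000461832, is itself annotated as a retained-intron form, that is, 1 that keeps intron sequence in the mature RNA.

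The first comparison asked what loss of attachment did, setting suspended vehicle against attached vehicle cells. SNHG16, SNHG29 and SNHG25 rose, SNHG12 and SNHG22 fell, and the other 22 hosts did not pass an adjusted p of 0.05 (edgeR's quasi-likelihood test, Benjamini-Hochberg over 15528 genes). These 5 of 27 hosts make 18.5%, beside 21.2% of all genes tested, with 10.4% higher and 10.8% lower, so the host genes changed about as often as genes in general. Their median log2 fold change was 0.00 (all genes 0.00), with 14 values above 0 and 13 below. In bulk libraries, a change in the share of cells that express a gene and a change in RNA per cell cannot be told apart. At an unadjusted p under 0.05 there were 10 of 27 hosts (34.1% of all genes). The groups did not overlap in 11 of 27 hosts, beside 38.1% of all genes, with 4 hosts higher (19.4% of all genes) and 7 lower (18.7%).

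SNHG16, host of 3 box C/D snoRNAs, is a long noncoding transcript often reported as abundant in tumours. It measured 189, 194 and 180 CPM in attached cells and 221, 226 and 220 CPM in suspended vehicle cells. The groups did not overlap. The log2 fold change was 0.25 ± 0.033 (SE), a 1.19-fold higher level, with an adjusted p of 0.000564 in edgeR's test. It was the highest value among the hosts that rose and the smallest p of the set.

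SNHG29, host of 3 box C/D snoRNAs and the most abundant host by counts, gave 238, 235 and 223 CPM in attached and 261, 264 and 265 CPM in suspended vehicle cells. Here too all suspended libraries lay above all attached ones, with a log2 fold change of 0.18 ± 0.032 (SE) and an adjusted p of 0.00258 in edgeR's test. Both genes stayed past the threshold in all 8 other settings and whichever library was left out.

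Small RNAs aside, no gene starts on the opposite strand within 1000 bases of the SNHG25 start or overlaps its exons. SNHG25 holds 1 box C/D and 1 box H/ACA snoRNA. Its level was 15.3, 18.4 and 16.6 CPM in attached and 20.6, 18.9 and 19.6 CPM in suspended vehicle cells, where the lowest suspended library was close to the highest attached one. The log2 fold change was 0.23 ± 0.069 (SE) with an adjusted p of 0.0324 in edgeR's test. The call was lost when any of attached replicates 1 and 3 or suspended vehicle replicates 1, 2 and 3 was left out, where the adjusted p ran from 0.0501 to 0.114. Rebuilding the counts from TPM also ended it (adjusted p = 0.102).

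SNHG12, which carries 3 box H/ACA and 1 box C/D snoRNA and overlaps the opposite-strand gene TRNAU1AP, fell. Attached libraries gave 37.0, 37.8 and 44.5 CPM, and the 3 suspended vehicle libraries gave 27.8, 27.7 and 27.8 CPM. The suspended values were nearly identical and lay well under the lowest attached value. The log2 fold change was -0.52 ± 0.112 (SE), with an adjusted p of 0.00679 in edgeR's test, and the call held in every alternative and with each library left out. Without attached replicate 3, the highest library, it was -0.43 with an adjusted p of 0.0338. TRNAU1AP, a partner of selenocysteine tRNA, fell by 0.20 on the log2 scale with an adjusted p of 0.0255. The strand setting of the counting is not given in the sources used here, so reads shared by the overlapping exons cannot be told apart.

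SNHG22, the host of a scaRNA, had few reads, with 25, 25 and 40 counts in attached, 13, 13 and 12 in suspended vehicle and 12, 28 and 16 in AT-0174 libraries. All of its TPM was assigned to 1 transcript of 421 bases. That is also the length of its scaRNA, SCARNA17, which opens at the RefSeq start of SNHG22. Reads of a spliced host and of the scaRNA thus cannot be told apart in this row, and their parts were not tested. The attached and suspended vehicle groups did not overlap. The log2 fold change was -1.39 ± 0.375 (SE), with an adjusted p of 0.0207 in edgeR's test. It was lost without attached replicate 3, at -1.15 and an adjusted p of 0.0957, and also without suspended vehicle replicate 2 (0.0695) or 3 (0.0704) or with counts rebuilt from TPM (0.0508). ACAA2, a mitochondrial thiolase whose start lies 12 bases from that of SNHG22 on the other strand, had a log2 fold change of 0.50 ± 0.186 (SE) with an adjusted p of 0.0738.

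**Figure D2:**
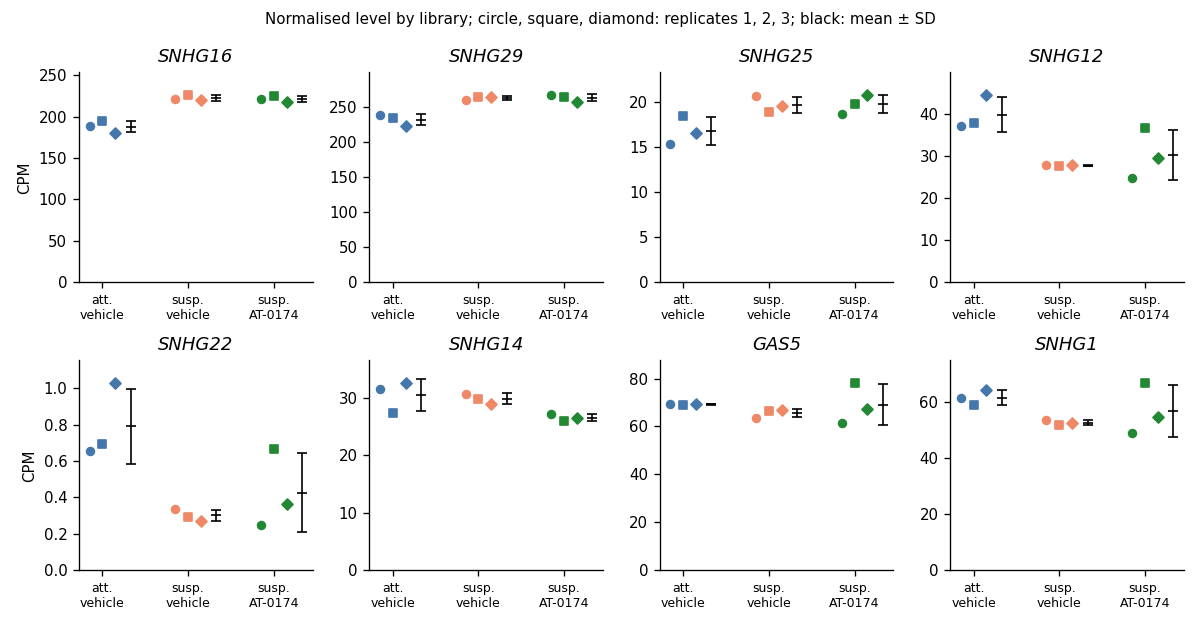
CPM in each library for 8 host genes, with circles, squares and diamonds for replicates 1, 2 and 3 and black bars for the mean and SD of 3 libraries; vertical axes start at 0. SNHG16 and SNHG29 sit higher in both suspended groups, SNHG12 sits lower, and AT-0174 replicate 2 (square) is the highest of its group in SNHG12, SNHG22, GAS5 and SNHG1.

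Of the hosts that missed the threshold, SNHG11, SNHG6 and SNHG1 came closest. SNHG11, host of 2 box H/ACA snoRNAs, gave 15.1, 15.2 and 16.2 CPM in attached and 10.5, 13.7 and 13.6 CPM in suspended vehicle cells, with a log2 fold change of -0.30 ± 0.101 (SE) and an adjusted p of 0.0534 in edgeR's test. SNHG1, host of 8 box C/D snoRNAs, gave 61.4, 59.0 and 64.5 CPM against 53.6, 51.9 and 52.6 CPM, with a log2 fold change of -0.23 ± 0.085 (SE) and an adjusted p of 0.0796. The groups did not overlap in either gene. Both were called lower by DESeq2, with adjusted p of 0.0263 for SNHG11 and 0.0212 for SNHG1, and in the fit to the 6 libraries of this comparison alone, with 0.0424 and 0.00414. The value of SNHG11 fell to -0.18 without suspended vehicle replicate 1, and with counts rebuilt from TPM it was -0.18 with an adjusted p of 0.328. SNHG6 had a log2 fold change of 0.13 ± 0.048 (SE) and an adjusted p of 0.0757.

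The 4 members whose names are not of the SNHG series did not pass. GAS5 gave 69.3, 68.9 and 69.5 CPM in attached and 63.7, 66.4 and 66.9 CPM in suspended vehicle cells, which did not overlap, yet its log2 fold change of -0.08 ± 0.067 (SE) had an adjusted p of 0.464 in edgeR's test. ZFAS1, host of 3 box C/D snoRNAs and known as a transcript tied to ribosomes, gave 59.7, 62.0 and 60.7 CPM against 66.1, 59.3 and 61.0 CPM, with a log2 fold change of 0.03 and an adjusted p of 0.674. DANCR, known for holding back differentiation, gave 90.6, 86.4 and 83.9 CPM against 88.8, 94.3 and 97.4 CPM, with a log2 fold change of 0.11 and an adjusted p of 0.118. EPB41L4A-AS1, an antisense-start transcript of the EPB41L4A locus, gave 14.4, 14 and 13.3 CPM against 12.7, 12.3 and 13.3 CPM, with a log2 fold change of -0.12 and an adjusted p of 0.248. With counts rebuilt from TPM its value was 0.06.

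SNHG8 and SNHG7, both box H/ACA hosts among the 5 most abundant, hardly moved, with log2 fold changes of 0.01 ± 0.062 and 0.01 ± 0.036 (SE) and adjusted p of 0.944 and 0.894. SNHG8 lay between 44.6 and 47.9 CPM and SNHG7 between 132 and 142 CPM in the 6 vehicle libraries. The 22 hosts that did not pass had log2 fold changes from -0.30 to 0.13. By kind of snoRNA, the 10 tested box C/D hosts had 2 higher and none lower, with a median log2 fold change of 0.01. The 10 box H/ACA hosts had none changed at this threshold and a median of -0.02. The 3 hosts of both kinds had 1 higher (SNHG25), 1 lower (SNHG12) and a median of -0.08. The 4 scaRNA hosts had 1 lower and a median of -0.27. Over all genes tested, 10.4% were higher and 10.8% lower. A pyrimidine run began within 10 bases of the RefSeq start in 14 tested hosts. Of these, 2 were higher (SNHG16 and SNHG29), 1 was lower (SNHG12) and the median was 0.01. SNHG14 is counted there by a RefSeq start 154975 bases from its outermost GENCODE start. The 9 hosts without such a run, GAS5 among them, had 1 lower (SNHG22) and a median of -0.12. The 4 tested hosts with no entry in the promoter set, whose starts were not searched, had 1 higher (SNHG25) and a median of 0.12. These counts too stand beside 10.4% of all genes higher and 10.8% lower.

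**Figure D3:**
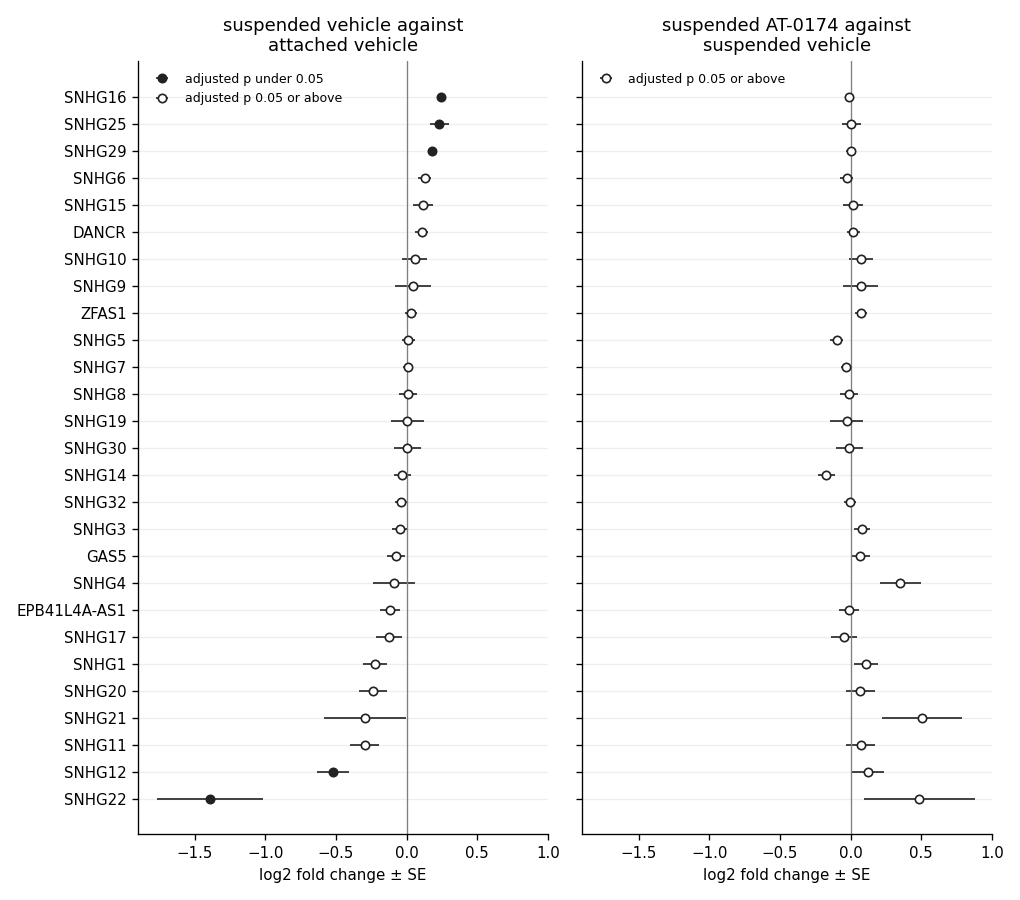
Log2 fold change ± SE of the 27 tested host genes, ordered by the left panel, for suspended vehicle against attached vehicle (left) and suspended AT-0174 against suspended vehicle (right); filled points have an adjusted p under 0.05. On the left 3 genes are higher and 2 lower, and on the right no point is filled.

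For SNHG5 and SNHG15 counts and TPM gave different answers. SNHG5, host of 2 box C/D snoRNAs, had a log2 fold change of 0.01 in counts (adjusted p = 0.883), yet its gene TPM was 38.7 ± 1.14 in attached, 47.8 ± 1.86 in suspended vehicle and 41.7 ± 0.62 in AT-0174 libraries (SD, n = 3). The share of its leading transcript, of 934 bases, was 41.1% ± 1.56, 31.1% ± 4.82 and 27.3% ± 4.03 in the same order (SD, n = 3). With counts rebuilt from TPM, which takes the length scaling of all genes into the counts, SNHG5 rose with a log2 fold change of 0.21 and an adjusted p of 0.0477. SNHG15 likewise went from 0.12 (adjusted p = 0.269) to 0.27 (adjusted p = 0.041). The part of transcript length in these differences was not tested.

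A set of 2 libraries stood out from their groups in these genes. AT-0174 replicate 2 was the highest of its 3 libraries in 19 of 27 hosts (70.4%), beside 32.6% of all genes tested, and attached replicate 3 was highest of its group in 15 (55.6%), beside 37.0% of all genes. The same 2 libraries had the largest share of reads assigned to retained-intron transcripts within their groups. Over all genes this share was 4.869%, 4.877% and 5.497% in attached, 4.33%, 4.33% and 4.35% in suspended vehicle and 4.07%, 4.78% and 4.45% in AT-0174 libraries. The part of this share in the host gene differences was not tested.

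Retained-intron forms made up most of GAS5 and SNHG12. In SNHG12, where 10 of 17 transcripts carry this label, they held 78.1% ± 2.69, 79.9% ± 3.54 and 79.1% ± 2.39 of the TPM in attached, suspended vehicle and AT-0174 libraries (SD, n = 3). In GAS5, where 20 of 31 do, they held 61.2%, 61.7% and 60.5% in attached, 51.6%, 52.8% and 50.9% in suspended vehicle and 52.84%, 60.04% and 54.00% in AT-0174 libraries. The attached and suspended vehicle values of GAS5 did not overlap and differed by -9.34 percentage points, with p = 0.1 in a two-sided exact permutation test, the smallest that 3 against 3 allows. In SNHG12 the difference was 1.79 percentage points with an exact permutation p of 0.7. Without attached replicate 3 and AT-0174 replicate 2 together, a choice made after seeing the data, SNHG16 and SNHG29 were called higher on suspension. Called lower in edgeR's test were SNHG12 at -0.43 (adjusted p = 0.00216) and SNHG1 at -0.19 (adjusted p = 0.0314). SNHG22 (0.0568) and SNHG25 (0.1) were not called. These calls were not set against the share of all genes in the same refit.

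**Figure D4:**
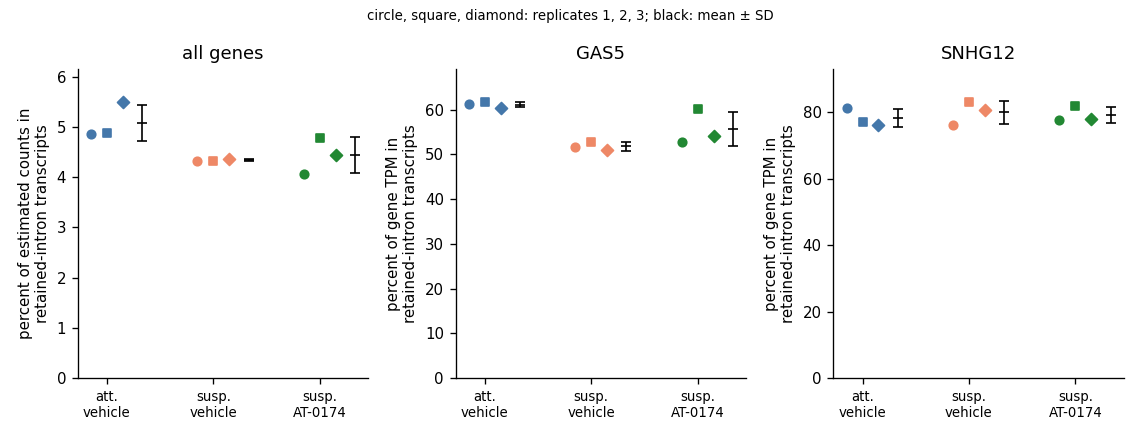
Share of retained-intron transcripts by library, as percent of estimated counts over all genes (left) and as percent of gene TPM for GAS5 (middle) and SNHG12 (right), with circles, squares and diamonds for replicates 1, 2 and 3 and black bars for mean ± SD; axes start at 0. Attached replicate 3 and AT-0174 replicate 2 are highest of their groups over all genes, and the GAS5 share is about 61.1% in attached and 51.8% in suspended vehicle libraries.

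The second comparison asked what AT-0174 did in suspended cells. None of the 27 hosts passed an adjusted p of 0.05 in edgeR's test, and none did with DESeq2, limma-voom or any other setting, beside 0.779% of all genes tested, 0.522% higher and 0.258% lower. At an unadjusted p under 0.05 there were 2 of 27 hosts (9.02% of all genes), SNHG14 lower and SNHG4 higher. The median log2 fold change of the hosts was 0.02 (all genes 0.00), 21 of 27 values lay within 0.1 of 0, and the adjusted p-values ran from 0.335 to 0.999.

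SNHG14 gave 30.77, 29.90 and 29.02 CPM with vehicle and 27.1, 25.9 and 26.6 CPM with AT-0174, which did not overlap. Its log2 fold change was -0.17 ± 0.059 (SE), with an adjusted p of 0.335 in edgeR's test. With counts rebuilt from TPM it was -0.030 (adjusted p = 0.991). SNRPN, which shares exons with it on the same strand, had a log2 fold change of -0.12 ± 0.062 (SE) and an adjusted p of 0.597. SNHG4, host of 2 box H/ACA snoRNAs, gave 2.95, 2.56 and 2.69 CPM against 3.42, 3.22 and 3.81 CPM, at a log2 fold change of 0.35 ± 0.143 (SE) and an adjusted p of 0.468. The only other host whose libraries did not overlap was SNHG5, at -0.10 and an adjusted p of 0.563, so 1 host was higher and 2 were lower without overlap, beside 7.75% and 7.66% of all genes (15.4% in all).

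The hosts that had changed on suspension showed no call with the drug. SNHG16 was at 221, 225 and 217 CPM and SNHG29 at 268, 264 and 258 CPM with AT-0174, with log2 fold changes against vehicle of -0.01 ± 0.033 and 0.00 ± 0.032 (SE). SNHG25 was at 18.7, 19.8 and 20.8 CPM, a log2 fold change of 0.01 ± 0.067 (SE). The AT-0174 values of these 3 genes fell among or beside the suspended vehicle values.

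SNHG12 gave 24.7, 36.5 and 29.5 CPM with AT-0174, on both sides of the 27.7 to 27.8 CPM of suspended vehicle cells, with a log2 fold change of 0.12 ± 0.112 (SE) and an adjusted p of 0.832. Without AT-0174 replicate 2 it was -0.03. GAS5 behaved alike in that library, with 61.4, 78.2 and 67.5 CPM, a log2 fold change of 0.07 ± 0.067 (SE), and -0.03 without replicate 2. SNHG1 gave 48.9, 66.9 and 54.8 CPM and went from 0.11 to -0.02. The signs of these 3 small differences thus rested on 1 library. ZFAS1 (67.9, 63.9 and 64.5 CPM), DANCR (99.1, 94.1 and 91.3 CPM), EPB41L4A-AS1 (11.7, 13.9 and 12.4 CPM), SNHG8 (43.2, 51.4 and 43.2 CPM) and SNHG7 (134, 138 and 130 CPM) had log2 fold changes of 0.08, 0.02, -0.01, -0.01 and -0.03.

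**Figure D5:**
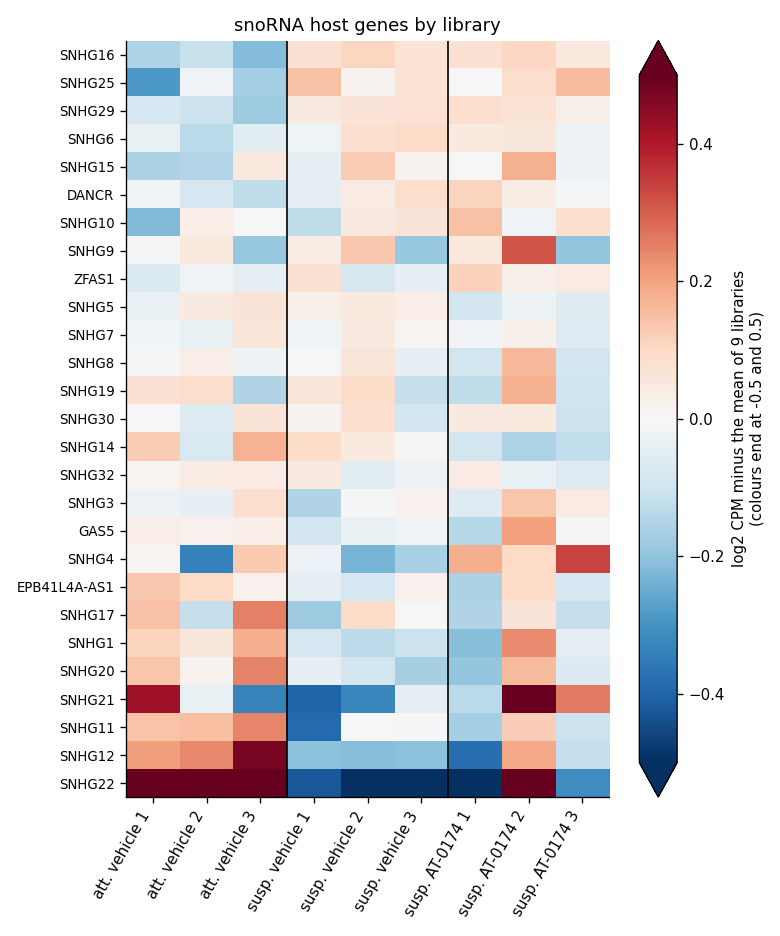
Log2 CPM of the 27 tested host genes in each of the 9 libraries minus the gene's mean over them; red is higher and blue lower, colours end at -0.5 and 0.5, and genes are ordered by their difference on suspension. AT-0174 replicate 2 is red in most rows from SNHG8 down, and SNHG12 and SNHG22 are red in all attached libraries.

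The third comparison, suspended AT-0174 against attached vehicle cells, shares its libraries with both others and is given for its own values. In it 3 hosts were higher and 2 lower of 27, beside 24.0% of all genes changed, 12.2% higher and 11.8% lower. At an unadjusted p under 0.05 there were 9 (36.6% of all genes), and 9 did not overlap (39.5%), 6 of them higher (20.4%) and 3 lower (19.1%). SNHG16 had a log2 fold change of 0.24 ± 0.033 (SE) and an adjusted p of 0.000469, SNHG29 of 0.18 ± 0.032 and 0.00186, and SNHG25 of 0.24 ± 0.069 and 0.0255 in edgeR's test. SNHG12 was lower by -0.40 ± 0.11 (adjusted p = 0.0203) and SNHG14 by -0.20 ± 0.059 (adjusted p = 0.0263). SNHG14 had 31.6, 27.4 and 32.6 CPM in attached cells, and its call was lost without any 1 of attached replicates 1 and 3 or the AT-0174 libraries, with adjusted p from 0.054 to 0.113. The call of SNHG12 was lost without attached replicate 3 (0.0936), AT-0174 replicate 1 (0.069) or AT-0174 replicate 3 (0.0623). That of SNHG25 was lost without attached replicate 1 (0.0963) or 3 (0.0729) or without AT-0174 replicate 2 (0.0552) or 3 (0.1). With counts rebuilt from TPM all 3 of these calls were lost, with SNHG14 at -0.11 (adjusted p = 0.486), SNHG12 at -0.39 (0.053) and SNHG25 at 0.21 (0.197).

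Several hosts share a start region with a protein-coding gene, and these partners had values of their own on suspension. SLC3A2, the heavy chain of amino acid transporters, begins 51 bases from SNHG1 and rose by a log2 fold change of 0.13 ± 0.036 (SE; adjusted p = 0.0241), where SNHG1 was at -0.23. ZBTB37, 800 bases from GAS5, rose by 0.38 ± 0.080 (adjusted p = 0.00594), where GAS5 was at -0.08. RPS2, a ribosomal protein gene 54 bases from SNHG9, was at 0.08 (adjusted p = 0.114), ZNFX1, 248 bases from ZFAS1, at -0.07 (adjusted p = 0.152), and TRAF7, 293 bases from SNHG19, at -0.03 (adjusted p = 0.577). The difference between host and partner was not tested. RCC1, which shares exons with SNHG3 on the same strand, had 0.07 (adjusted p = 0.142), and MATR3 beside SNHG4 had 0.01 (adjusted p = 0.833). In all, 16 of the 27 tested hosts overlap an exon of a gene on the opposite strand and 8 one on the same strand, and their values are uncertain to the extent that reads were shared.

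Genes of the proteins that bind and assemble snoRNAs are given beside the 10.4% of all genes that rose and the 10.8% that fell on suspension. Of the 4 box C/D core proteins 1 rose, SNU13, with a log2 fold change of 0.17 ± 0.035 (SE; adjusted p = 0.00494), while FBL, the methyltransferase, was at 0.08 (adjusted p = 0.24). Of the 4 box H/ACA core proteins NOP10 rose by 0.14 ± 0.047 (adjusted p = 0.0476), and DKC1, the pseudouridine synthase, was at 0.02 (adjusted p = 0.705). Of 12 assembly factors 1 rose, the helicase RUVBL1, at 0.11 ± 0.032 (adjusted p = 0.0314). The list medians were 0.05, 0.06 and 0.05, beside 0.00 for all genes, and none of these 20 genes passed with AT-0174 (0.779% of all genes).

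Genes of nonsense-mediated decay were lower on suspension more than higher. Of 10 tested factors 6 fell (10.8% of all genes) and 2 rose (10.4% of all genes), with a median log2 fold change of -0.14. UPF3B, which joins the decay factors to the exon junction complex, fell by 0.38 on the log2 scale (SE 0.078; adjusted p = 0.00543), SMG5 by 0.22 (SE 0.05; adjusted p = 0.00879), UPF2 by 0.14 (SE 0.036; adjusted p = 0.0141) and UPF1, the central helicase, by 0.13 (SE 0.034; adjusted p = 0.0148), while the kinase SMG1 rose by 0.30 (SE 0.087; adjusted p = 0.028). With AT-0174 against suspended vehicle none of the 10 passed (0.779% of all genes). Of 5 exon junction complex genes MAGOHB rose and RBM8A fell, and of 6 tested stress transcripts known as decay targets TBL2 alone passed, at 0.18 ± 0.05 (adjusted p = 0.0215).

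Ribosomal protein genes and other TOP messages gave a first reference for the hosts. The search of pyrimidine runs had used 62 ribosomal protein genes, a list not the same as the one here. The other TOP messages were not searched as a list. Of 77 cytosolic ribosomal protein genes 62 rose on suspension and none fell, beside 10.4% and 10.8% of all genes, and the list median was 0.16 (log2). Of 17 other TOP messages 8 rose and none fell, with a median of 0.11, among them EEF1A1 at 0.16 ± 0.03 (adjusted p = 0.00369) and EEF2 at 0.15 ± 0.029. The 14 tested hosts with a run beginning within 10 bases of the RefSeq start had 2 of 14 higher and a median of 0.01. Such a run does not establish a TOP message, and the difference between these lists was not tested. None of the 6 genes that regulate TOP messages passed, with LARP1, which binds the TOP run, at 0.04 (adjusted p = 0.351). In AT-0174 against suspended vehicle cells 0 of the 77 and 0 of the 17 passed, beside 0.779% of all genes. Their medians were 0.06 and 0.06 (all genes 0.00), and all 77 and all 17 values lay above 0. The shift of these lists was not tested.

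Long noncoding RNAs that host no snoRNA gave a second reference. Of 13 tested, 4 fell and 1 rose on suspension, beside 10.8% and 10.4% of all genes, and the list median was -0.09 (log2). MIR22HG fell by 0.70 on the log2 scale (SE 0.117; adjusted p = 0.00196), MALAT1, a nuclear speckle RNA, by 1.07 (SE 0.249; adjusted p = 0.0105), TUG1 by 0.11 and NORAD by 0.10, and OIP5-AS1 rose by 0.14. Protein-coding genes that carry a snoRNA in their span, ribosomal protein genes aside, had 36 of 198 higher and 13 lower (24.7% changed, beside 21.2% of all genes), with a median of 0.03, led by LAMB1, the laminin beta chain, at -1.77 ± 0.084. With AT-0174 1 of the 198 passed (0.505%, beside 0.779% of all genes), the phospholipase PLCB1, at 0.27 ± 0.049 (adjusted p = 0.0253).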

How the data were processed

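The authors prepared mRNA libraries (a SMARTER mRNA kit per the labels, a different mRNA kit in the study's methods) and, per the labels, used bcl2fastq 2.20.0.422, cutadapt 3.4, Trim Galore 0.6.7, STAR 2.7.9a and Salmon 1.10.1 on GRCh38 with Ensembl annotation. The deposited estimated counts per gene and the deposited Salmon tables of estimated counts and TPM per transcript were used. Strand setting is not given in the sources used here. The gene table equalled the transcript sums. Estimated counts were rounded, genes kept by filterByExpr, scaled by TMM and tested with edgeR 4.0.16 in R 4.3.3, group only, over all 9 libraries, with Benjamini-Hochberg adjustment and 0.05 as threshold. SE is the absolute log2 fold change over the root of F. DESeq2 1.42.0 and limma 3.58.1 served as alternatives. The scripts were tested on simulated data. No 2 libraries agreed within sampling noise. Values by library were named for hosts called in any comparison, the 5 highest by TPM and the 4 not named SNHG, the rest by range, with SNHG1, SNHG4, SNHG5, SNHG6, SNHG11 and SNHG15 added after their values were seen. Fixed lists gave up to 4 genes of smallest p each, with SMG1 and OIP5-AS1 named after their values were seen. Members and lists were chosen with earlier results of these data known. Positions came from RefSeq GRCh38.p14 and transcript types from GENCODE 44. Counting intervals and floors cover counting error only.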

Additional observations from a re-analysis of the deposited data

How the results depend on the processing

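Direction held for all 10 called host gene differences in 180 refits, of which 151 kept the call and 29 lost it. On suspension the hosts lower were 4 with DESeq2, 4 with no filter on low counts, 4 with only the 6 libraries and 1 with counts rebuilt from TPM, and with libraries left out they ranged from 1 to 4 lower and 2 to 3 higher. All genes changed were then 1714 with rebuilt counts and 1935 to 3260 with libraries out, and fixed-list genes 96 to 138. With AT-0174 against vehicle no host was called in any setting (0 to 0), while all genes changed were 239 with DESeq2, 499 with no filter, 35 with rebuilt counts and 63 to 128 with libraries out, and fixed-list genes 4, 8, 0 and 0 to 1 (1 as reported). AT-0174 against attached gave 4 hosts lower with no filter and 0 with rebuilt counts, 0 to 4 lower and 2 to 4 higher with libraries out, 2056 genes with rebuilt counts and 2239 to 3680 with libraries out, and 106 to 160 fixed-list genes. The hosts' summed share per group was 0.255%, 0.296% and 0.285% as TPM, 0.101%, 0.106% and 0.106% without SNHG29, and 0.124% to 0.124%, 0.132% to 0.134% and 0.13% to 0.134% with libraries out. The median leading-transcript share by counts was 46.0%. The replicate block gave 3 higher and 3 lower on suspension (SNHG11 added), 0 with AT-0174, and 3 higher and 2 lower in the third comparison. Libraries with the same number correlated between -0.096 and 0.118 in their deviations, so the numbers were not taken to pair them.

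On suspension, hosts not called whose sign turned with libraries left out had log2 fold changes of -0.020 to 0.12 for SNHG10, -0.10 to 0.019 for SNHG14, -0.069 to 0.069 for SNHG19, -0.078 to 0.0059 for SNHG3, -0.033 to 0.053 for SNHG30, -0.21 to 0.011 for SNHG4, -0.017 to 0.033 for SNHG5, -0.011 to 0.039 for SNHG7, -0.016 to 0.035 for SNHG8, -0.025 to 0.14 for SNHG9, -0.012 to 0.067 for ZFAS1. With AT-0174 against vehicle, hosts not called whose sign turned with libraries left out had log2 fold changes of -0.020 to 0.048 for DANCR, -0.086 to 0.041 for EPB41L4A-AS1, -0.029 to 0.15 for GAS5, -0.024 to 0.21 for SNHG1, -0.047 to 0.13 for SNHG11, -0.036 to 0.25 for SNHG12, -0.050 to 0.061 for SNHG15, -0.12 to 0.013 for SNHG17, -0.13 to 0.032 for SNHG19, -0.032 to 0.15 for SNHG20, -0.037 to 0.045 for SNHG25, -0.012 to 0.0096 for SNHG29, -0.058 to 0.035 for SNHG30, -0.037 to 0.017 for SNHG32, -0.098 to 0.032 for SNHG8, -0.065 to 0.18 for SNHG9. Signs of uncalled hosts also turned with only the 6 libraries of the contrast SNHG19 -0.0020 (suspension), SNHG30 -0.0031 (suspension), with counts rebuilt from TPM EPB41L4A-AS1 0.058 (suspension), SNHG10 -0.0061 (AT-0174), SNHG11 -0.025 (AT-0174), SNHG15 -0.062 (AT-0174), SNHG25 -0.068 (AT-0174), SNHG29 -0.025 (AT-0174), with DESeq2 size factors SNHG29 -0.00094 (AT-0174), with DESeq2 SNHG29 -0.00095 (AT-0174), with at least 10 counts in every library SNHG29 -0.0043 (AT-0174), with replicate block SNHG29 -4.8e-05 (AT-0174). The cause was not tested.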
